A study of Mus musculus and synthetic construct with 33 samples.

Results

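The 57 reporter tiles that cover exon 2 of Trp53cor1 were examined, out of 445 tiles of the locus. A tile is a designed oligonucleotide that carries 90 bases of the locus and 1 of 5 short tags. Members were all tiles whose start lies at or below 29060358 on chromosome 17 (mm10), the 5′ end of exon 2, which runs from 29057474 to 29060358 on the minus strand in the annotation that the authors joined to their tables. The rule uses position alone and no measured value. Exon 2 has 2885 bases, and exon 1 of the annotated transcript ENSMUST00000133221.1 has 71, so exon 2 holds 97.6% of that transcript. The tiles covered 2828 of the 2885 bases. The 37 bases at the 3′ end (29057474 to 29057510) and 20 bases at 29059659 to 29059678 lay under no tile.

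Trp53cor1, also called linc-p21, is a long noncoding RNA gene that p53 can induce and that lies next to Cdkn1a, the gene of the cell cycle inhibitor p21. In a massively parallel reporter assay, many DNA pieces are each joined to a tagged reporter gene, and the amount of tag RNA is set against the amount of tag in the vector DNA. Pieces that raise transcription, such as enhancers or promoters, give more tag RNA than their part of the vector pool. Pieces that lower transcription, or that lie within the RNA and make it less stable, give less. C2C12 is a mouse myoblast line, made of muscle precursor cells that can fuse into myotubes in culture.

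The series profiled RNA of organs from embryos with and without Trp53cor1, which was not used here beyond its annotation, and ran the reporter assay. The reporter groups were 3 libraries of tag RNA, made from total RNA of C2C12 cells by copying the tagged GFP reporter RNA (RNA 1 to 3), and 3 libraries of the vector DNA pool (vector 1 to 3). No treatment, genotype or time is given for the cells in the sources used here. Nothing says that the 3 RNA libraries came from separate cultures, or the vector libraries from separate preparations, so the tests measure only the spread between these libraries, which may be technical. The libraries hold reporter tags alone, so the identity of the cells could not be checked against muscle markers.

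Every tile was read on the strand of the gene, and neighbouring tiles start 49 bases apart, which gives them 41 bases in common. In all 440 such pairs of the locus the deposited sequences overlapped as minus-strand sequences should. The results below turn on 3 tiles with the largest excess of RNA over vector, so these are shown with both neighbours, each 5′ to 3′ with its mm10 position on the minus strand. Capitals mark the 8 bases of a higher tile that neither neighbour carries. The neighbour listed first lies on the 5′ side in the transcript. Nearest to the 3′ end of the gene were the following 3.
chr17:29057609-29057698: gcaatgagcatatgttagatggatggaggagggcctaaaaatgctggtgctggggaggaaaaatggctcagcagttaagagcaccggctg
chr17:29057560-29057649: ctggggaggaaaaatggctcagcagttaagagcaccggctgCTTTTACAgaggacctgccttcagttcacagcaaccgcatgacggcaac
chr17:29057511-29057600: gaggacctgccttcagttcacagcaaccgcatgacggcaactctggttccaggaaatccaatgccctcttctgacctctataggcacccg

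The second group lay further upstream in the transcript.
chr17:29057903-29057992: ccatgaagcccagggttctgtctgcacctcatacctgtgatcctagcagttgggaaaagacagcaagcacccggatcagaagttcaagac
chr17:29057854-29057943: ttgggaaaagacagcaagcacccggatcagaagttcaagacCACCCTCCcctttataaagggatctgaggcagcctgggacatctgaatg
chr17:29057805-29057894: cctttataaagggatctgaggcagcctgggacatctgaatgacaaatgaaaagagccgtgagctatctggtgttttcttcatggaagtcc

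The third group lay close to the 5′ end of exon 2.
chr17:29060169-29060258: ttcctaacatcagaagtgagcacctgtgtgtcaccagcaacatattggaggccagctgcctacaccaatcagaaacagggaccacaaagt
chr17:29060120-29060209: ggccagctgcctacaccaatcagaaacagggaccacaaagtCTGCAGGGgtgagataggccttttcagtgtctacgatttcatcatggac
chr17:29060071-29060160: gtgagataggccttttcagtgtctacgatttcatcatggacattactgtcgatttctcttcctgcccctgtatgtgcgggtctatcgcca

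Values were deposited as the share of all tag reads in a library and are given here as that share times 1000000 (ppm), with the 5 tags of a tile summed. Exon 2 tiles took 2.00%, 2.00% and 2.08% of the tag reads in RNA 1 to 3, against 2.42%, 2.43% and 2.42% in vector 1 to 3. The groups did not overlap. All listed tiles of the locus together went the other way, at 20.3%, 20.6% and 20.1% in RNA and 17.8% in each vector library. Among them, the intron tile at chr17:29076940-29077029 alone held 38673, 40449 and 34308 ppm in RNA, against 1080, 1063 and 1058.5 ppm in vector. The median tile was at 270.6, 288.6 and 285.3 ppm in the RNA libraries and at 362.5, 368.8 and 357.4 ppm in the vector libraries. Tiles of the vector ranged from 21.4 to 1988 ppm. No share above 0 was below 8.54 ppm in RNA or 5.59 ppm in vector, so rarer tags are listed at 0. Of 285 exon 2 tags, 56 were at 0 in all vector libraries, and 226 (79.3%) were above 0 in all of them, compared with 71.1% over the locus. Read depth is not stated, so no counting interval is given.

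Most of exon 2 gave slightly less RNA than vector, and a few tiles gave more. Differences are log2 RNA over vector from limma, on log2(share + 1e-05), which understates the change of low tiles. The median exon 2 tile was at -0.34, beside -0.33 for all 431 tested tiles, and it was -0.36, -0.35 and -0.30 in RNA 1, 2 and 3. In exon 2, 4 tiles were called higher (7.02%), 39 lower (68.4%) and 14 not called, at a Benjamini-Hochberg adjusted p under 0.05 over all tested tiles. Over the locus 9.74% of tiles were called higher and 59.9% lower, so the exon 2 shares lay near the background. In 45 of the 57 exon 2 tiles every RNA library lay below every vector library, and in 4 above. Over all 431 tested tiles these were 285 (66.1%) and 47 (10.9%). On this fitted scale no exon 2 tile reached a 2-fold change, whereas 14 tiles outside it were higher and 4 lower by 2-fold or more. With a pseudocount of 1e-06, chr17:29057854-29057943 was higher by 2-fold or more in exon 2, and chr17:29058148-29058237 and chr17:29058393-29058482 lower, against 14 higher and 16 lower tiles outside it.

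The number of lower calls depended on where 0 was set. A library's shares are relative to its whole pool, and the median tile of the locus sat below 0. With each library centred on the median of its tested tiles, a shift of 0.26 on the log2 scale, exon 2 had 7 tiles higher and 8 lower, against 13.7% and 14.2% over the locus. Relative to that median, all 4 higher tiles and 8 of the 39 lower tiles kept their call. The 3 tiles added as higher were chr17:29058050-29058139, chr17:29058932-29059021 and chr17:29060071-29060160, named after their values were seen, with centred log2 values of 0.29, 0.18 and 0.23. On the deposited scale they stood at 0.03, -0.08 and -0.04, close to equal RNA and vector.

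On the deposited scale, higher tiles lay at the ends of the exon. Tiles were placed by their centres in consecutive windows of 500 bases from the 3′ end, the last of them shorter because the exon ends there. The first window held 2 higher tiles of 9 and the last, next to exon 1 in the transcript, 2 of 8. The 4 windows between them held 0 higher and 31 lower of 40 tiles. On the centred scale, chr17:29058050-29058139 and chr17:29058932-29059021, which lie in these 4 windows, were called higher. Window medians were -0.32, -0.44, -0.40, -0.36, -0.31 and -0.17 from the 3′ end to the 5′ end. The last window also had the most vector, with a median of 618.4 ppm against 236.9 to 432.9 ppm in the others, and its part in the result was not tested.

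The tile at chr17:29057854-29057943, towards the 3′ end of the exon and 2416 bases from its 5′ end, had the largest excess of exon 2. Its share was 757, 792 and 653 ppm in RNA 1 to 3, against 362.5, 372 and 357 ppm in vector 1 to 3. Every RNA library lay above every vector library. The ratio was 1.98-fold (log2 0.99, SE 0.07, 95% interval 0.82 to 1.16, adjusted p = 1.71e-05, limma). CTAGCATGGT (log2 1.39), ACAACGCATT (1.53) and TTCAGGTAGT (1.15) were called higher by limma over all tags, while TTAACTTTCG (0.16) and TTCAGGTAGC (-0.46) were not called. Leaving out each tag in turn gave tile values between 0.82 and 1.22, called in all 5 cases.

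Its neighbours did not share the excess although each has 41 of its bases. The neighbour on the 5′ side, chr17:29057903-29057992, had 111, 146 and 150 ppm in RNA against 237, 206.5 and 215 ppm in vector (log2 -0.66, SE 0.13, adjusted p = 0.00251, limma), 1 of the 5 lowest called values in the exon. The neighbour on the 3′ side, chr17:29057805-29057894, had 271, 289 and 295 ppm against 312.5, 322 and 322 ppm (log2 -0.16, adjusted p = 0.0576, limma) and was not called. The difference between neighbours was tested directly, in a fit over all 415 neighbouring pairs. The higher tile exceeded the first neighbour by 1.65 on the log2 scale (95% interval 1.25 to 2.05, adjusted p = 0.000693, limma) and the second by 1.15 (0.87 to 1.42, adjusted p = 0.000690). This comparison does not depend on how libraries are scaled. The tiles of largest excess were picked by their log2 values, so the direction of such differences, here and below, was set by that choice. The letters TATAAA, a core promoter motif, occur in the tile and equally in the neighbour on the 3′ side.

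Next came the tile at chr17:29060120-29060209, near the 5′ end of the exon. It took 858, 851 and 821 ppm in RNA against 483, 493 and 476 ppm in vector, with no overlap. The ratio was 1.73-fold (log2 0.79, SE 0.04, 95% interval 0.69 to 0.89, adjusted p = 3.22e-06, limma). Its tags CGATAACGGG (log2 0.60), TGCGAAGGGT (0.82) and AAAGCATCTT (1.07) were called higher. ACATTGGAAT was at 0, 27.6 and 31.2 ppm in RNA and 21.8, 21.6 and 23.6 ppm in vector, and CGATAACGGC was at 0 throughout. TGCGAAGGGT alone made up 61.6% of the vector share of the tile. Averaging the log2 values of tags, which gives the tag with a 0 the same weight as the others, brought the tile to 0.25 and ended the call (adjusted p = 0.449, limma).

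Here too the neighbours lay lower. The one on the 3′ side, chr17:29060071-29060160, was level with the vector at 1063, 951 and 929 ppm in RNA and 1005, 1010 and 997 ppm in vector (log2 -0.04, SE 0.06). The one on the 5′ side, chr17:29060169-29060258, had 356, 329 and 300.5 ppm in RNA and 401, 387 and 393 ppm in vector (log2 -0.26, adjusted p = 0.0132, limma). The higher tile exceeded them by 0.82 (95% interval 0.62 to 1.03, adjusted p = 0.000777) and 1.05 (0.83 to 1.26, adjusted p = 0.000314, limma). The tile holds the letters CAGCTG, an E-box of the kind bound by muscle regulators such as MyoD, and CCAAT. Both motifs lie in the bases shared with the neighbour on the 5′ side, which was called lower.

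In the second position from the 3′ end lay the tile at chr17:29057560-29057649. It had 314, 318 and 332 ppm in RNA against 186, 185 and 196 ppm in vector. The groups did not overlap, and the ratio was 1.66-fold (log2 0.73, SE 0.07, 95% interval 0.57 to 0.90, adjusted p = 7.62e-05, limma). All 5 tags were above 0 on the log2 scale, from 0.18 for AACCCGATCG to 1.14 for CTAAATCGAT, and GTTCCCTACG (0.70) and AACCCGATCC (1.09) were called. Every leave-out of a tag kept the call. It exceeded its neighbour on the 3′ side, chr17:29057511-29057600 (260, 383 and 361 ppm in RNA, 431, 429 and 401 ppm in vector), by 1.07 (95% interval 0.71 to 1.44, adjusted p = 0.00288, limma). The other neighbour, chr17:29057609-29057698, rested on 1 tag at 22.1 to 26.2 ppm in vector, and the difference of 0.78 was not called (0.05 to 1.51, adjusted p = 0.123).

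This tile resembled pieces of the intron. A search with blastn of each exon 2 tile against all tiles at least 200 bases away found 6 similar tiles for it, 4 of them called higher and 1 lower. Over all 431 tested tiles 9.74% were called higher and 59.9% lower. Some of the 6 similar tiles overlap each other, so they are not 6 separate copies. The closest, at chr17:29076940-29077029, aligned over 69 bases at 81.2% identity. It is the tile with the largest excess of the locus, with 38673, 40449 and 34308 ppm in RNA against 1080, 1063 and 1058 ppm in vector (35.0-fold, log2 5.13, SE 0.06, limma). In the sequences below, capitals mark the aligned bases.
chr17:29057560-29057649: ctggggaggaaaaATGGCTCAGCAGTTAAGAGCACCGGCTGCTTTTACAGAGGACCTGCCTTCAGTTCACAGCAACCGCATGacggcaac
chr17:29076940-29077029: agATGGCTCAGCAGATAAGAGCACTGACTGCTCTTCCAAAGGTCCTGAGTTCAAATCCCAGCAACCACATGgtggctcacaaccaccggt
By its letters the stretch is the head of a B2 repeat, a short interspersed element that is abundant in the mouse genome and that RNA polymerase III can transcribe from an internal promoter. No repeat annotation was used here, and the part of the repeat in the reporter values was not tested.

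The other tiles with this stretch varied widely. On the opposite strand it was carried by the tile at chr17:29071392-29071481, aligned over 61 bases at 73.8% identity, with 1449, 1376 and 1328 ppm in RNA against 697.5, 724 and 725 ppm in vector (log2 0.94). Another tile, at chr17:29066539-29066628, also on the opposite strand, aligned over 62 bases (79.0%) and was at 0.27. The tile at chr17:29076989-29077078 overlaps the strongest one and aligned over 45 bases (82.2%), at 0.32. The tiles at chr17:29077136-29077225 (-0.94, called lower) and chr17:29077185-29077274 (-0.59, not called) overlap each other and aligned over 26 bases alone (88.5%). In exon 2, the neighbour on the 5′ side of the query, chr17:29057609-29057698, also carries part of the stretch. It aligned with the strongest tile over 28 bases (89.3%) and with chr17:29076989-29077078 over 34 bases (85.3%), and was itself at -0.05, not called. The neighbour on the 3′ side, chr17:29057511-29057600, carries another part of the stretch, though the search gave no match of it with the strongest tile. It was called lower (log2 -0.34, adjusted p = 0.0472, limma), and on the centred scale it was not called (-0.077). These tiles were picked by sequence after the value of the query was known, so no test is attached.

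Of the tiles near the limit of the rule, 3 are given. Inside it, chr17:29060267-29060356, which lies wholly in the exon, was at -0.10 (SE 0.09), not called. The first 2 outside, chr17:29060365-29060454 and chr17:29060414-29060503, are intronic and were called lower, at -0.25 and -0.46. The first of these had 1060, 1238 and 1225 ppm in RNA and 1397, 1386 and 1402 ppm in vector.

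Among the lower tiles, 5 with the lowest called values are shown, in order from the 5′ side.
chr17:29060218-29060307: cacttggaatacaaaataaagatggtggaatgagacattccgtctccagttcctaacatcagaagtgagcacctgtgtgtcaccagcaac
chr17:29059226-29059315: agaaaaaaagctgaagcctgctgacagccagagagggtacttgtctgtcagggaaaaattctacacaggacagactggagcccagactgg
chr17:29058687-29058776: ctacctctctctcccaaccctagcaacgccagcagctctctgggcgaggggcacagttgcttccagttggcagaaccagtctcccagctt
chr17:29058393-29058482: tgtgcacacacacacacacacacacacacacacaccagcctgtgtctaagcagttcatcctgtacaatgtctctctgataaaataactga
chr17:29057903-29057992: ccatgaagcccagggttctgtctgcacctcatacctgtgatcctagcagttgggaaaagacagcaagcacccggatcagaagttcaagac
The lowest, chr17:29058393-29058482, opens with a run of ca repeats and had 21.8, 26.2 and 11.4 ppm in RNA against 38.7, 36.7 and 41.2 ppm in vector (log2 -0.75, SE 0.22, adjusted p = 0.0164, limma). Only 2 of its tags were above 0 in all vector libraries, and on the centred scale it was not called (-0.49, adjusted p = 0.160). The next, chr17:29060218-29060307, was better measured, at 336, 317 and 402 ppm in RNA against 565, 575 and 591 ppm in vector (log2 -0.71, SE 0.09, adjusted p = 0.000245, limma). All 5 of its tags were below 0 and 4 were called lower. It contains AATAAA, the letters of the polyadenylation signal, which 8.77% of exon 2 tiles and 8.31% of all tiles hold on either strand. The same copy lies in the neighbour on the 5′ side, chr17:29060267-29060356, which was at -0.10 and not called.

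The other lower tiles of this group were chr17:29057903-29057992, described above, chr17:29058687-29058776 (-0.64, SE 0.19) and chr17:29059226-29059315 (-0.61, SE 0.10). The last had 101, 116 and 115.5 ppm in RNA against 175.5, 170.1 and 177 ppm in vector. On the centred scale chr17:29060218-29060307 (-0.44), chr17:29057903-29057992 (-0.40) and chr17:29059226-29059315 (-0.35) stayed called, and chr17:29058687-29058776 (-0.37, adjusted p = 0.158, limma) was not. A lower value than any of these, -0.86 at chr17:29058148-29058237, rested on 1 tag at 21.4 to 29.9 ppm in vector, with 19.8, 0 and 13.8 ppm in RNA. It was not called (adjusted p = 0.0706).

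A lower tile, picked because its match had the highest value among matches of lower tiles, had a strong counterpart elsewhere. The tile at chr17:29059924-29060013 had 836, 865 and 927 ppm in RNA against 1278, 1285 and 1258 ppm in vector (log2 -0.54, SE 0.05, adjusted p = 5.10e-05, limma), and stayed lower when centred (-0.27). Over 52 aligned positions, at 76.9% identity, it matched the opposite strand of the intron tile at chr17:29075862-29075951, which had 4222, 4311 and 3522 ppm in RNA against 548, 540 and 534 ppm in vector (7.29-fold, log2 2.87). Capitals mark the aligned bases in both.
chr17:29059924-29060013: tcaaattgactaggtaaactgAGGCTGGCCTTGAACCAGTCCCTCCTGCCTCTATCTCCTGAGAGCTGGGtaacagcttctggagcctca
chr17:29075862-29075951: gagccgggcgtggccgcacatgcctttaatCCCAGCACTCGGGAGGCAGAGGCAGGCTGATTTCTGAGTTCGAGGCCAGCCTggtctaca
The intron tile reads as the start of a B1 repeat, another short interspersed element of the mouse. A second intron tile that matched on the opposite strand, chr17:29064922-29065011, was at 0.39 and called higher. Exon 2 thus carries this stretch in the orientation opposite to that of both. Of the 57 exon 2 tiles, 9 had a similar tile elsewhere in the locus, and 7 of these were not called higher. The 10 tested tiles similar to those 7 had a median log2 of -0.13, with 4 called higher and 2 lower. The shares over all 431 tested tiles were 9.74% higher and 59.9% lower. Of the higher ones, chr17:29076940-29077029 and chr17:29076989-29077078 were already counted as matches of the higher tile at chr17:29057560-29057649. They enter again through its neighbour chr17:29057609-29057698, so they are not a separate set. The remaining higher ones were the matches of chr17:29059924-29060013 given above.

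Single tags were tested as well. Of the 226 exon 2 tags tested, 10 were called higher (4.42%) and 70 lower (31.0%), against 6.83% and 27.1% of all 1581 tags tested in the locus. All 10 higher tags belonged to the 4 higher tiles, and no tile had tags called in both directions. Since a tile value is the sum of these same tags, the overlap of the calls is no separate evidence. Within a tile, tags differed, with a median SD of 0.39 on the log2 scale, close to the 0.34 between exon 2 tiles. Tags are not replicates of a condition, since those of 1 tile share its sequence. Leaving out 1 vector library brought the lower tags to 23 to 26, and without vector 2 or vector 3 the higher tags fell to 6.

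Abrupt steps between neighbours were few. Of 55 neighbouring pairs within exon 2, limma called 7 (12.7%), against 20.7% of the 415 pairs of the locus. Of these, 5 involved the 3 strongest tiles. The other 2 were the step of 0.37 from chr17:29059924-29060013 up to chr17:29059875-29059964 (adjusted p = 0.0337) and that of 0.60 from chr17:29060218-29060307 up to chr17:29060267-29060356 (adjusted p = 0.0235). Without RNA 2 the number of pairs called was 15, and without RNA 3 it was 14. Across overlapping pairs of exon 2, the log2 values had a Pearson r of 0.12 (n = 55), beside 0.28 over the locus (n = 415), as a description of tiles that share 41 bases and all libraries.

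Base composition and depth were compared with the values as a description. GC content of exon 2 tiles ranged from 36.7% to 63.3%, with a median of 51.1%, and the 3 tiles of largest excess held 54.4%, 51.1% and 51.1% in order from the 3′ end. Across the 57 tiles the log2 value and GC content had a Pearson r of 0.05, against 0.22 over all 431 tested tiles. With the log2 vector share the r was 0.15. Precision, in contrast, followed the vector share: the SE was 0.13 in the median of the 28 tiles below 364 ppm and 0.06 in the other 29. Of the 14 tiles not called, 12 were among those 28. Between pairs of RNA libraries, the log2 ratios of the 57 tiles to their mean vector share had a Pearson r of 0.59 to 0.72, where the same vector values enter both sides.

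Short motifs were searched on both strands of every tile. CANNTG, the general E-box, occurred in 43.9% of exon 2 tiles and 36.4% of all tiles, and its muscle form CAGCTG, which is a case of it, in 8.77% and 5.84%. CCAAT occurred in 21.1% and 10.6%, TATAAA in 7.02% and 4.49%, and TGACG, the core of the cyclic AMP response element, in 7.02% and 3.60%. TGANTCA, the AP-1 motif, occurred in 1 exon 2 tile (1.75%, against 3.60%). The p53 decamer occurred in 1 exon 2 tile, not among the 4 higher ones, and in 2.02% of all tiles. GGGCGG (SP1), CCGGAA (ETS), the CArG box of SRF and the MEF2 motif occurred in 0 exon 2 tiles. The 5 exon 2 tiles with CAGCTG had a median of -0.26 and those without it -0.35. These 5 include chr17:29060120-29060209 and chr17:29060169-29060258, which overlap and share a copy of it. Over the locus the medians were -0.333 with CAGCTG and -0.336 without. For CCAAT the exon 2 medians were -0.33 and -0.36, beside -0.32 and -0.34 over the locus. A match describes letters and does not show that a factor bound there.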

How the data were processed

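Reporter tags were sequenced from 3 RNA and 3 vector libraries, and CASAVA 1.8.2 is named in the submitters' processing notes. The authors deposited the fraction of all tag reads in a library that each tag took, per the file headers and the values. Other tags of the pool, which hold the rest of each library, were not analysed here. The authors' deposited ratio and median columns were not used. No source used here says how tags were counted.

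Shares of the 5 tags of a tile were summed and tested with limma 3.58.1 (R 4.3.3) on log2(share + 1e-05), RNA against vector, two-sided, with a mean-variance trend and Benjamini-Hochberg adjustment at 0.05 over the 431 tiles above 0 in all vector libraries. Differences between neighbours 49 bases apart were fitted without a trend. Tags were fitted with a pseudocount of 1e-06. As an alternative, log2 values were averaged over all 5 tags of a tile, so tags at 0 throughout entered as no difference. Similar tiles were found with blastn 2.17.0 (word size 7, E value up to 0.001). The fits were tested on simulated data. Pseudocount, filter, centring, trend, summary of tags, single tags and libraries, and a replicate block were varied as alternatives. Named tiles were those called higher, the 2 tiles on each side of them, the 5 lowest called, both sides of the limit and the 5 largest steps. The remaining tile called higher is counted but not reported here. Members, lists and tests were chosen with earlier results of these data known, and the search for similar tiles and the motif list were added after the values were seen.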

Additional observations from a re-analysis of the deposited data

How the results depend on the processing

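Of the alternatives run, 4 tiles were called higher in all but these: 3 when all 5 tags had to be above 0 in all 6 libraries (14 tiles left) or with tag 5 left out, and 2 with the mean of log2 tags; centring gave 7. Lower tiles numbered 8 when centred, 16 with the mean of log2 tags and 10 of 14 with all tags above 0, and 28 to 43 without single libraries. The median of -0.34 was -0.26 with a pseudocount of 1e-04, -0.39 with all tags above 0, -0.077 when centred, -0.40 with the mean of log2 tags and with tag 5 left out, and -0.33 to -0.39 without single libraries. Centring turned 7 named tiles from below to above 0, of which 3 were not called in either case (chr17:29057609-29057698 at 0.22, chr17:29057805-29057894 at 0.10 and chr17:29060267-29060356 at 0.16) and 4 were called under 1 of the 2 scalings: chr17:29060022-29060111 (0.029), chr17:29060071-29060160 (0.23), chr17:29060169-29060258 (0.0036) and chr17:29060365-29060454 (0.011). Pairs called numbered 15 with a pseudocount of 1e-04, 0 of 1 pair with all tags above 0, 11 with tag 4 left out, 11 with tags above 0 in all 6 libraries (an alternative chosen after seeing the data), and 5 to 15 without single libraries. Tags called lower were 16 when centred and 23 to 95 without single libraries, and tags called higher 6 to 13. The causes were not tested, except that fewer tiles enter where all tags must be above 0.

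RNA and vector libraries share replicate numbers, but same-numbered libraries did not deviate together (r = -0.009, -0.059 and 0.028). This check cannot exclude a pairing by design, since the vector libraries differed little from each other. With the replicate number as a block, lower tags numbered 44, higher tags 9, pairs 6, and tiles 4 higher and 39 lower. Of 405 values of named tiles under alternatives, 342 kept direction and side of the threshold, 43 lost and 9 gained a call, and 11 changed sign, 7 of them not called in either case. Read depth is unknown, and low shares limit precision.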

Other observations

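In exon 2, 5 tags were listed at 0 in all 3 vector libraries and above 0 in at least 1 RNA library. TGTACAATTT, of the tile at chr17:29057707-29057796, was at 13.9 and 17.0 ppm in RNA 1 and RNA 2 and at 0 in RNA 3. GAACTTACTC, of the tile at chr17:29059875-29059964, was at 19.3 ppm in RNA 2. AAAATTTAGC, of the tile at chr17:29059973-29060062, was at 15.0 ppm in RNA 3. ATCTCCGGGT, of chr17:29060267-29060356, was at 13.2 ppm in RNA 1, and ATTACGTTGG, of chr17:29057511-29057600, at 10.7 ppm in RNA 3. These 4 were at 0 in the other RNA libraries. Conversely, 27 exon 2 tags above 0 in all vector libraries were at 0 in at least 1 RNA library.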
